A study of Chlorocebus sabaeus with 10 samples.

Results

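Carboxypeptidase E (CPE), 3 other carboxypeptidases (CPD, CPM and CPQ) and 4 proprotein convertases (FURIN, PCSK5, PCSK6 and PCSK7) were described in the livers of 10 adult female vervet monkeys, an Old World primate. These 8 genes were picked by gene symbol among the 28078 transcripts of the deposited RNA-Seq table, in which each of them has 1 transcript. CPE was chosen from its measured difference between the diets, where it had the smallest p of all tested transcripts, and the other 7 genes were listed beside it as related enzymes with the diet results already known. The diet values of the 8 genes are therefore given as a description, without a test. All animals ate chow before the study, and then 5 animals received the high fructose (HFr) diet and 5 animals stayed on chow for 6 weeks. Liver biopsies were flash frozen, and polyadenylated RNA from each biopsy made 1 stranded library, so the replicates of a diet are separate animals and whole liver tissue was measured.

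Many secreted and membrane proteins are made as longer precursors. Proprotein convertases cut these precursors after pairs or clusters of basic residues, and carboxypeptidases of the CPE type then remove the lysines and arginines left at the new end. In endocrine cells and neurons CPE does this for peptide hormones inside secretory granules, whereas FURIN in the trans-Golgi network serves the constitutive route that hepatocytes use for their plasma proteins.

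The counts on each library set how precisely these genes were measured. Estimated counts per animal totalled 2977282 to 4992505, but transcripts of the mitochondrial genome took 34.7% to 73.6% of them, and 864571 to 2657103 counts remained for nuclear transcripts, a 3.07-fold range. Neither the mitochondrial share (55.5% ± 11.8 on HFr, 55.4% ± 16.5 on chow, SD, n = 5 each, two-sided exact permutation test, p = 0.992) nor the nuclear count (p = 0.889, same test) separated the diets. The tissue label was checked with 7 hepatocyte markers, whose summed level was 28956 to 51474 on HFr and 27580 to 57594 on chow. These sums were chiefly ALB, with a mean of 29755 beside a mean sum of 38896 on HFr, and 33666 beside 41811 on chow. Levels below are normalized counts, that is estimated counts per 1000000 counts of a library, with library sizes scaled by edgeR's TMM method (the trimmed mean of M values). Transcript lengths of the assembly used were not at hand, so levels are compared between animals and not ranked between genes. Where counts of different genes stand side by side, they are not corrected for length.

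The 8 genes are protein coding and lie on 7 chromosomes of the vervet assembly ChlSab1.1, with positions counted from 1 and the last base included. CPE (ENSCSAG00000003171) lies on chromosome 7 from 111747172 to 111868754 on the plus strand. CPD (ENSCSAG00000006796) is on chromosome 16 from 24106883 to 24193129, plus strand, and CPQ (ENSCSAG00000012387) is on chromosome 8 from 91738987 to 92097126, plus strand. CPM (ENSCSAG00000004238) is on chromosome 11 from 64478106 to 64556278, minus strand. FURIN (ENSCSAG00000017046, 8979720 to 8988235) and PCSK6 (ENSCSAG00000016835, 19754625 to 19949382) share the minus strand of chromosome 29. PCSK5 (ENSCSAG00000007915) is on chromosome 12 from 87042557 to 87367033, plus strand, and PCSK7 (ENSCSAG00000002686) is on chromosome 1 from 108576998 to 108601130, minus strand. Counts sufficed for a fit in 5 of the 8 genes, CPE, CPM, CPQ, FURIN and PCSK6, and were too low for CPD, PCSK5 and PCSK7.

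CPE was lower in every HFr liver than in any chow liver. In HFr replicates 1 to 5 its normalized count was 11.2, 7.80, 14.0, 9.93 and 11.0. In chow replicates 1 to 5 it was 25.9, 28.5, 14.6, 26.1 and 25.1. The diets do not overlap, but chow replicate 3 stands apart from the other chow animals and lies close to the highest HFr animal, replicate 3. The mean was 10.8 ± 2.26 on HFr and 24.03 ± 5.44 on chow (SD, n = 5 each), so the HFr mean was 44.9% of the chow mean, and the log2 fold change was -1.16 (SE 0.22). The counts behind these values were modest, 30 to 56 per HFr animal and 52 to 131 per chow animal, 201 and 432 in all. Scaled only to the nuclear counts of each library, without TMM, CPE spanned 19.4 to 33.3 per 1000000 nuclear counts on HFr and 30.1 to 73.2 on chow, and on that scale chow replicate 3 fell within the HFr range. In bulk liver tissue, fewer cells that express a gene and less RNA of it per cell cannot be told apart.

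**Figure D1:**
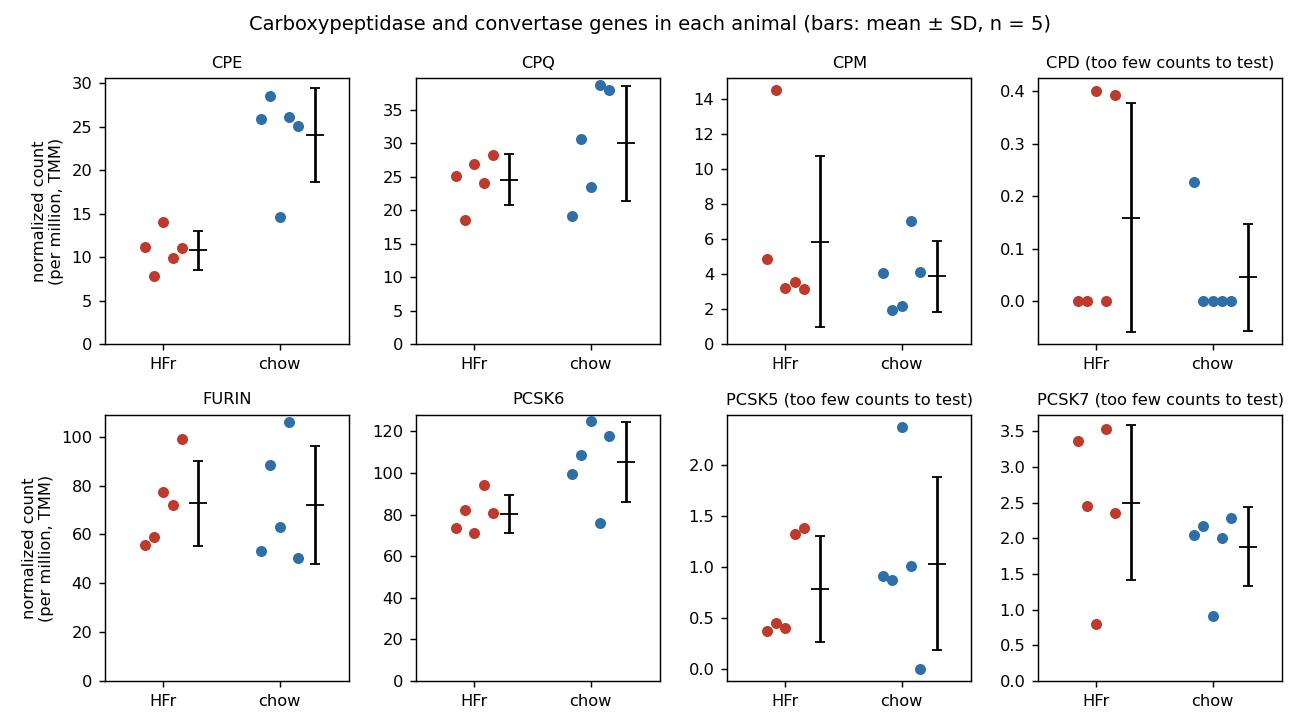
Normalized count (per 1000000 counts, after TMM scaling, vertical axes, each panel on its own scale) of the 8 genes in each of the 5 HFr (red) and 5 chow (blue) animals, with the mean and SD of each diet as bars. CPE is the panel without overlap, from 7.80 to 14.0 on HFr and from 14.6 to 28.5 on chow.

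The separation of the diets seen in CPE was not seen in its relatives. Of the 5 fitted genes, 1 (CPE) had all HFr animals below all chow animals, beside 26 of 7948 tested transcripts, or 0.327%, and since CPE was chosen from this contrast nothing can be read from that count. Across all tested transcripts the middle 95% of log2 fold changes ran from -0.66 to 0.60. CPE and CPM (log2 fold change 0.72) lay outside that band, and CPQ, FURIN and PCSK6 lay inside it.

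CPQ, a plasma glutamate carboxypeptidase of another enzyme family, had overlapping values in the diets. Its normalized count in HFr replicates 1 to 5 was 25.1, 18.5, 26.9, 24.1 and 28.3. In chow replicates 1 to 5 it was 19.1, 30.7, 23.5, 38.7 and 37.9. Each of the HFr animals lay under the mean of the chow animals, but chow replicates 1 and 3 were within the HFr range. The means were 24.6 ± 3.76 on HFr and 29.96 ± 8.65 on chow (SD, n = 5 each), with a log2 fold change of -0.27 (SE 0.21).

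CPM, a carboxypeptidase tethered to the outer face of the cell membrane, owed its higher HFr mean to 1 animal. HFr replicate 2 held 65 counts of it, and the other 9 animals held 8 to 18. In normalized counts HFr replicates 1 to 5 had 4.87, 14.5, 3.21, 3.53 and 3.14. The chow animals had 4.09, 1.96, 2.19, 7.03 and 4.11. The HFr mean was 5.85 ± 4.88 and the chow mean 3.87 ± 2.04 (SD, n = 5 each), with a log2 fold change of 0.72 (SE 0.49) that became 0.01 without HFr replicate 2. That animal also had the highest summed level of the 5 cholangiocyte markers on the HFr diet, 27.6 beside 5.96 to 20.4 in the other HFr animals. The cholangiocyte sums of the chow animals were 10.04 to 32.4, the highest in chow replicate 1, where CPM was 4.09. Over the 10 animals, with each diet's mean subtracted on the log2 scale, the cholangiocyte sum went with CPM at r = 0.19. Among the 10 marker lists this value ran from -0.31 (lymphocyte) to 0.36 (stellate cell and fibroblast). The part of cholangiocytes in the CPM value was not tested.

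CPD, the trans-Golgi carboxypeptidase of the CPE type that most tissues express, was barely counted. It was at 0 in 7 of the 10 animals, with 3 counts over all HFr animals (exact 95% Poisson interval 0.619 to 8.77) and 1 over all chow animals (0.0253 to 5.57). A difference between the diets could not be seen with so few counts. They are counts on the 1 annotated CPD transcript, and whether that model covers the CPD mRNA of vervet liver was not tested. Such intervals cover counting error only.

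FURIN, the trans-Golgi convertase, had nearly equal means in both diets. Its normalized counts were 55.8, 59.0, 77.3, 71.9 and 99.2 in HFr replicates 1 to 5. They were 53.1, 88.3, 62.8, 105.9 and 50.2 in chow replicates 1 to 5. The ranges overlap almost wholly, and the chow animals hold both the lowest and the highest value. Its mean was 72.7 ± 17.3 on HFr and 72.1 ± 24.1 on chow (SD, n = 5 each), with a log2 fold change of 0.02 (SE 0.24) whose sign depended on which animal was left out.

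PCSK6, also known as PACE4, a convertase that binds to the cell surface and matrix, had a lower mean on HFr with overlap of the diets. Its normalized counts were 73.4, 82.0, 70.9, 94.2 and 80.8 in HFr replicates 1 to 5. In chow replicates 1 to 5 they were 99.6, 108.8, 125.1, 75.8 and 117.8. Every HFr animal was below every chow animal except chow replicate 4, the library with the fewest nuclear counts, which lay within the HFr range. The means were 80.3 ± 9.12 on HFr and 105.4 ± 19.1 on chow (SD, n = 5 each), with a log2 fold change of -0.39 (SE 0.17).

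PCSK5 and PCSK7 were too sparse for a fit. PCSK5, which like PCSK6 acts at the cell surface and matrix, had 0 to 13 counts per animal, 17 over the HFr animals (exact 95% Poisson interval 9.90 to 27.2) and 23 over the chow animals (14.6 to 34.5). PCSK7, a membrane convertase of the secretory pathway, had 2 to 16 counts per animal, 50 over the HFr animals (37.1 to 65.9) and 33 over the chow animals (22.7 to 46.3). Within each gene the intervals of the diets overlap. Normalized PCSK7 was 2.502 ± 1.09 on HFr and 1.88 ± 0.555 on chow, and normalized PCSK5 was 0.784 ± 0.517 and 1.03 ± 0.850 (SD, n = 5 each).

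Ratios of 2 genes within an animal do not depend on how libraries are scaled to each other. Estimated counts of CPE were 0.389 to 0.522 of those of CPQ in the HFr animals and 0.620 to 1.36 in the chow animals. Against FURIN the ratio was 0.111 to 0.201 on HFr and 0.232 to 0.5 on chow. Both ratios kept the diets apart. Against CPM it was 0.538 to 4.38 on HFr and 3.71 to 14.6 on chow, with overlap. Against PCSK6 it was 0.0951 to 0.198 on HFr and 0.116 to 0.344 on chow, where chow replicate 3 lay within the HFr range. The difference of the mean log2 ratio, HFr minus chow, was -0.89 to CPQ, -1.19 to FURIN, -1.61 to CPM and -0.76 to PCSK6. The convertase pair FURIN and PCSK6 gave 0.720 to 1.23 on HFr and 0.426 to 1.40 on chow, so their balance overlapped fully, and FURIN had more counts than PCSK6 in 3 of the 10 animals. These ratios share the CPE counts that chose the gene and are given without a test.

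**Figure D2:**
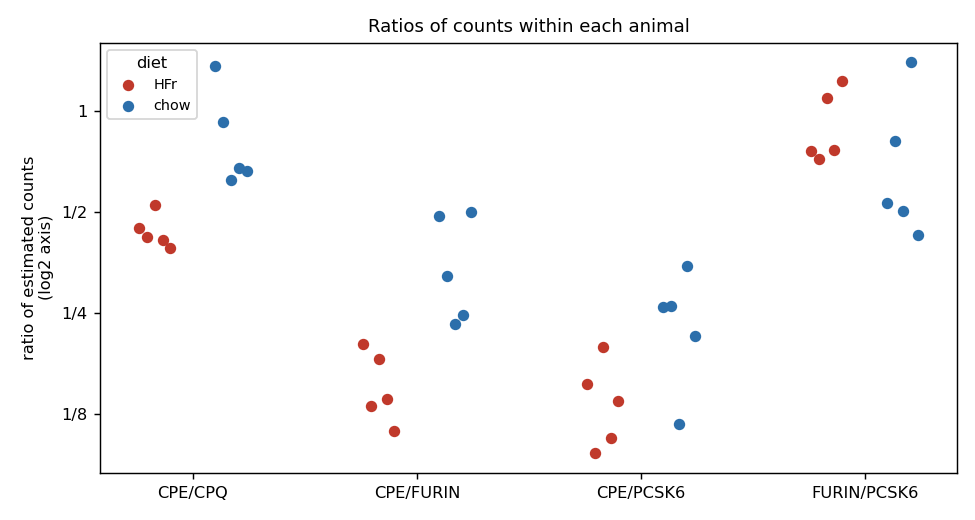
Ratio of estimated counts of 2 genes within each animal (log2 vertical axis) for CPE to CPQ, CPE to FURIN, CPE to PCSK6 and FURIN to PCSK6, with HFr animals in red and chow animals in blue. The diets are apart for CPE to CPQ (at most 0.522 on HFr, at least 0.620 on chow) and for CPE to FURIN (at most 0.201 and at least 0.232), and overlap for CPE to PCSK6 and FURIN to PCSK6.

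How single animals departed from the mean of their diet was not used to choose the genes. The p that chose CPE does depend on the size of its spread within diets. After each diet's mean was subtracted from log2 normalized counts (pseudocount 1), the 10 pairs of the 5 fitted genes gave no correlation past the threshold over the 10 animals (exact permutation within diets, smallest adjusted p = 0.577 for Pearson and 0.633 for Spearman). The most negative Pearson value was that of CPE with PCSK6 (r = -0.54, permutation p = 0.167, rho = -0.62, p = 0.0655, r = -0.43 without the 2 animals farthest from the median in CPE). CPQ went with FURIN at r = 0.51 (permutation p = 0.209, rho = 0.48, p = 0.244), and CPE went with CPQ at r = 0.49 (permutation p = 0.209, rho = 0.47, p = 0.201), which became 0.06 without the 2 farthest animals. With the mitochondrial percent of the library the within-diet correlation was 0.43 for CPE, 0.46 for CPQ, 0.18 for CPM, -0.08 for FURIN and -0.48 for PCSK6, with a median of -0.01 over all tested transcripts. With the log2 nuclear count of the library the within-diet correlation was -0.58 for CPE, -0.52 for CPQ and -0.38 for CPM. For FURIN it was 0.08 and for PCSK6 0.64. The points share their library, and the part of depth in the pair values was not tested.

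The transcripts whose within-diet pattern over the 10 animals was most like that of CPE, among 6022 named transcripts with a mean count of at least 20, were PYM1 (Pearson r = 0.93), ZNF7 (0.90), EFTUD2 (0.89), ROBO4 (0.86) and WSB1 (0.86). The most opposite were ST3GAL1 (r = -0.90), IAH1 (-0.89) and PHF5A (-0.89), and the median over all candidates was 0.01. These are the extremes of a long list over few animals and are a description only. None of them had a diet difference as large as that of CPE (log2 fold change -1.16). CPE was chosen from the diet contrast and these transcripts were not, so nothing can be read from that. PYM1, an exon junction complex factor, had log2 fold change 0.46 (SE 0.20), the opposite direction, and the others lay between -0.27 (ROBO4, a receptor of endothelial cells) and 0.22 (ST3GAL1, a sialyltransferase).

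Among the marker genes of other cell types, 2 genes of the smooth muscle list, ACTA2 and TAGLN, were lower on HFr at an unadjusted p under 0.05 in edgeR. None passed after adjustment, and no marker of the other lists was called. Over all 7948 tested transcripts, 177 (2.23%) were lower on HFr at that unadjusted level. The marker lists were chosen with earlier results of these data known, so the 2 calls are a description only. Of the 5 markers listed (ACTA2, TAGLN, DES, MYH11 and CNN1), 5 had counts and 3 could be fitted, and all 3 had a negative log2 fold change. ACTA2, smooth muscle actin, was 5.17 ± 2.23 on HFr and 15.8 ± 10.4 on chow (SD, n = 5 each, log2 fold change -1.57, SE 0.49, unadjusted p = 0.00646 in edgeR, adjusted p = 0.9996). TAGLN, an actin-binding protein of smooth muscle, was 11.5 ± 2.86 and 18.8 ± 5.18 (log2 fold change -0.69, SE 0.24, unadjusted p = 0.0122 in edgeR, adjusted p = 0.9996). DES, the muscle intermediate filament desmin, had a log2 fold change of -1.78 (SE 0.91, unadjusted p = 0.0697 in edgeR). The summed level of the list was 19.8, 20.3, 31.3, 15.9 and 18.3 in HFr replicates 1 to 5. It was 42.7, 50.5, 14.8, 44.7 and 100.9 in chow replicates 1 to 5. The diets overlap through chow replicate 3, which had the lowest sum of all animals and the lowest CPE of the chow animals. HFr replicate 3 was the highest HFr animal in both. The difference of the summed level, 21.1 ± 5.93 against 50.7 ± 31.3, gave p = 0.0476 in a two-sided exact permutation test and 0.476 after adjustment over the 10 marker lists. Within diets, over the 10 animals, the sum went with CPE at r = 0.73 (permutation p = 0.0492, adjusted 0.402) and rho = 0.81 (permutation p = 0.0311, adjusted 0.311), and r was 0.45 without the 2 animals farthest from the median in CPE. Which cells of the biopsy carry these markers, and the part of smooth muscle in the CPE difference, was not tested.

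**Figure D3:**
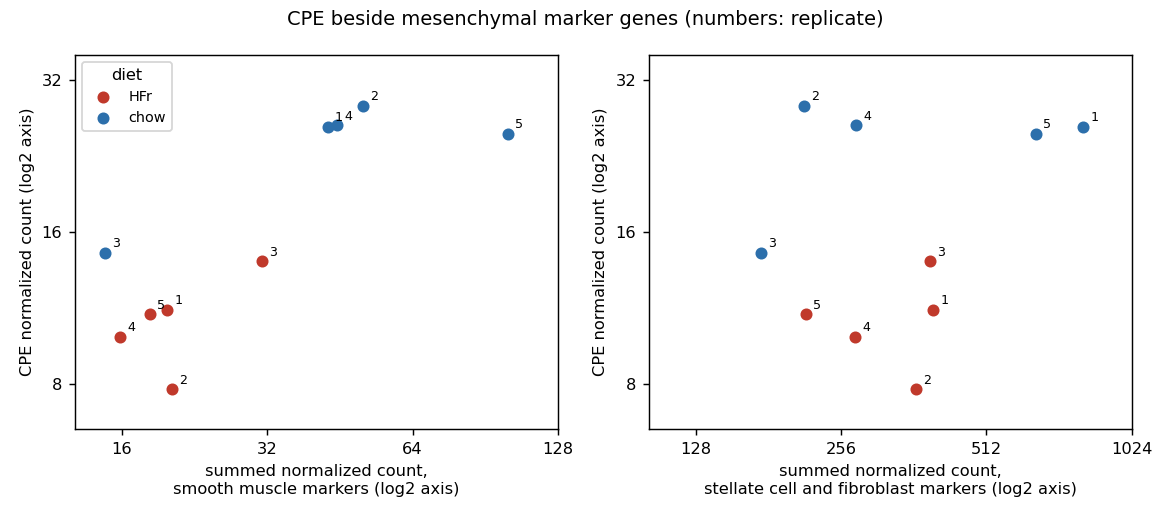
CPE normalized count (log2 vertical axis) in each animal beside the summed normalized count of 5 smooth muscle markers (left, log2 axis) and of the stellate cell and fibroblast markers (right, log2 axis), numbered by replicate, HFr in red and chow in blue. Chow replicate 3 (CPE 14.6, smooth muscle sum 14.8) sits with the HFr animals on the left, and the stellate and fibroblast sums of the diets overlap on the right.

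The other marker lists overlapped between the diets, with two-sided exact permutation p-values of the summed level between 0.333 and 0.944. Stellate cell and fibroblast markers summed to 217 to 398 on HFr and 175 to 811 on chow, with LRAT at 0 in all animals, and went with CPE at r = 0.36 within diets (permutation p = 0.489, rho = 0.26, p = 0.545). Endothelial markers summed to 283 to 397 and 223 to 394 (r = 0.67, permutation p = 0.0804, adjusted 0.402, rho = 0.42, p = 0.253), and r turned to -0.53 without the 2 animals farthest from the median in CPE. The list for neuroendocrine cells and nerve, where CPE is best known, summed to 11.4 to 23.96 on HFr and 13.1 to 23.6 on chow, with SOX10 at 0 and the granule protein CHGA at 2 counts over all 10 animals. Cholangiocyte markers summed to 5.96 to 27.6 and 10.04 to 32.4, macrophage markers to 33.0 to 142 and 31.3 to 145, and lymphocyte markers to 13.5 to 24.4 and 13.8 to 18.1. Blood markers, chiefly HBB, summed to 100.3 to 333 and 60.7 to 343, and skeletal muscle markers to 0.374 to 2.004 and 0.435 to 2.72, with CKM and MYH2 at 0. For the lists other than smooth muscle and endothelial, within-diet correlations with CPE had adjusted permutation p-values of at least 0.503 (Pearson) and 0.633 (Spearman). The values of r also changed in other lists when the same 2 animals, the farthest in CPE, were left out. Lymphocyte markers gave r = 0.49 (permutation p = 0.155, rho = 0.53, p = 0.128), or 0.70 without them. Cholangiocyte markers gave r = -0.15 (permutation p = 0.657, rho = 0.12, p = 0.772), or 0.73 without them. Of the lists not given an r above, r ran from -0.48 (hepatocyte) to 0.40 (blood).

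Genes that act around these enzymes were read from 4 lists written from general knowledge with the diet results known, 117 genes in all, of which 74 could be tested in the same fit. Over all 7948 tested transcripts, 164 (2.06%) were higher and 177 (2.23%) lower on HFr at an unadjusted p under 0.05 in edgeR, 341 together, and 0 (0%) passed after Benjamini-Hochberg adjustment, while DESeq2 called 2. Of the 74 list genes 6 were higher (8.11%) and 1 lower (1.35%) at that unadjusted level, and none passed after adjustment in edgeR, DESeq2 or limma (smallest adjusted p in edgeR 0.9996). Their median log2 fold change was -0.0045, beside -0.00069 over all tested transcripts. The share of higher genes is above the background of 2.06%, but it rests on 6 genes, and was not tested.

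Other carboxypeptidases showed no gene past the unadjusted level. Over all tested transcripts 2.06% were higher and 2.23% lower at that level, so 0 of 9 tested shows nothing particular to these genes. Of 25 listed, 9 were tested, 3 higher and 6 lower on HFr, with log2 fold changes from -0.39 to 0.31 and a median of -0.08. CPXM2, a secreted relative of CPE without known enzyme activity, was 7.13 ± 2.35 on HFr and 9.32 ± 5.21 on chow (-0.39, SE 0.39, unadjusted p = 0.327). AEBP1, another relative in the extracellular matrix, was 16.1 ± 3.58 and 19.3 ± 12.9 (-0.26, SE 0.37). CPB2, the carboxypeptidase B that hepatocytes secrete and that slows clot lysis, was 170.8 ± 25.8 and 183.7 ± 50.7 (-0.10, SE 0.22). The lysosomal enzymes PRCP (0.31, SE 0.21, unadjusted p = 0.154) and CTSA (-0.04, SE 0.19) did not pass either.

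Of the genes listed for prohormone processing and granules, those typical of endocrine cells had few or no counts, whereas several with wider roles were well counted. The endocrine convertase genes PCSK1 and PCSK2 had 0 and 4 counts over the 10 animals, so PCSK1 could be at up to 3 counts within counting error. The granule proteins CHGA, CHGB and SCG2 had 2, 2 and 1 counts and VGF had 0. The convertase inhibitor gene PCSK1N had 16 counts, and SCG5, which escorts the PCSK2 enzyme, had 21. SCG3, another granule protein, had 89 counts, while PAM had 1580 and RAB27A, a GTPase of vesicle transport, had 1848. Of 24 listed genes 8 were tested, 2 higher and 6 lower on HFr, with a median log2 fold change of -0.09. CADPS2, a priming factor of dense-core vesicles, had an unadjusted p under the threshold, at 13.5 ± 4.72 on HFr and 7.497 ± 1.77 on chow (SD, n = 5 each, log2 fold change 0.82, SE 0.27, unadjusted p = 0.00888 in edgeR). All 5 HFr animals were above the chow mean, but the diets overlapped (at least 7.80 on HFr, at most 9.79 on chow). PAM, the enzyme that amidates peptides once CPE has exposed their glycine, was 39.8 ± 5.78 and 44.2 ± 8.77 (-0.15, SE 0.18, unadjusted p = 0.426). The dibasic-site protease NRDC (-0.09, SE 0.17) and the lysosomal protease CTSL (0.37, SE 0.22, unadjusted p = 0.118) did not pass.

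Trans-Golgi sorting genes, which place FURIN and its cargo, were nearly all fitted, 22 of 25, with 9 higher and 13 lower on HFr and a median log2 fold change of -0.01. SORT1, the sorting receptor sortilin and itself cut by FURIN, was 14.4 ± 4.64 on HFr and 8.63 ± 1.65 on chow (SD, n = 5 each, log2 fold change 0.73, SE 0.24, unadjusted p = 0.00898 in edgeR). AP1M1, a subunit of the AP-1 clathrin adaptor, was 36.8 ± 5.48 and 25.98 ± 4.67 (0.50, SE 0.18, unadjusted p = 0.0132 in edgeR). In both genes every HFr animal was above the chow mean. FLNA, the actin crosslinker that holds FURIN at the cell surface, was 27.9 ± 8.23 and 37.3 ± 8.22 (-0.42, SE 0.23, unadjusted p = 0.0896). The mannose 6-phosphate receptor gene IGF2R (-0.21, SE 0.16, unadjusted p = 0.206) and the coat-recruiting GTPase gene ARF1 (-0.01, SE 0.17) did not pass.

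Proproteins that convertases cut gave the widest spread. Of 43 listed, 35 were tested, 21 higher and 14 lower on HFr, with log2 fold changes from -0.72 to 1.102 and a median of 0.08. MET, the receptor of hepatocyte growth factor, which FURIN cuts into its α and β chains, was 33.2 ± 9.41 on HFr and 54.8 ± 3.33 on chow (SD, n = 5 each, log2 fold change -0.72, SE 0.19, unadjusted p = 0.00197 in edgeR). It was the only tested gene of the 4 lists with all HFr animals (at most 48.1) below all chow animals (at least 49.2), 1 of 74 beside the 0.327% of all tested transcripts, and its difference was known when the list was written. PLXNB1, the semaphorin receptor plexin-B1, was 24.4 ± 6.58 and 15.5 ± 4.88 (0.66, SE 0.25, unadjusted p = 0.0182 in edgeR). GPC3, a cell-surface proteoglycan, was 16.2 ± 10.5 and 7.23 ± 2.79 (1.102, SE 0.46, unadjusted p = 0.0322 in edgeR), with HFr animals from 2.87 to 27.0. INHBB, the βB subunit of activin and inhibin, named after its value was seen, was 26.9 ± 18.9 and 12.9 ± 6.88 (1.099, SE 0.50, unadjusted p = 0.0440 in edgeR). The abundant plasma proteins with a convertase site did not pass, ALB at 29755 ± 6982 and 33666 ± 8956 (-0.18, SE 0.33, unadjusted p = 0.601) and C3 at 5957 ± 1201 and 5649 ± 1645 (0.08, SE 0.28).

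**Figure D4:**
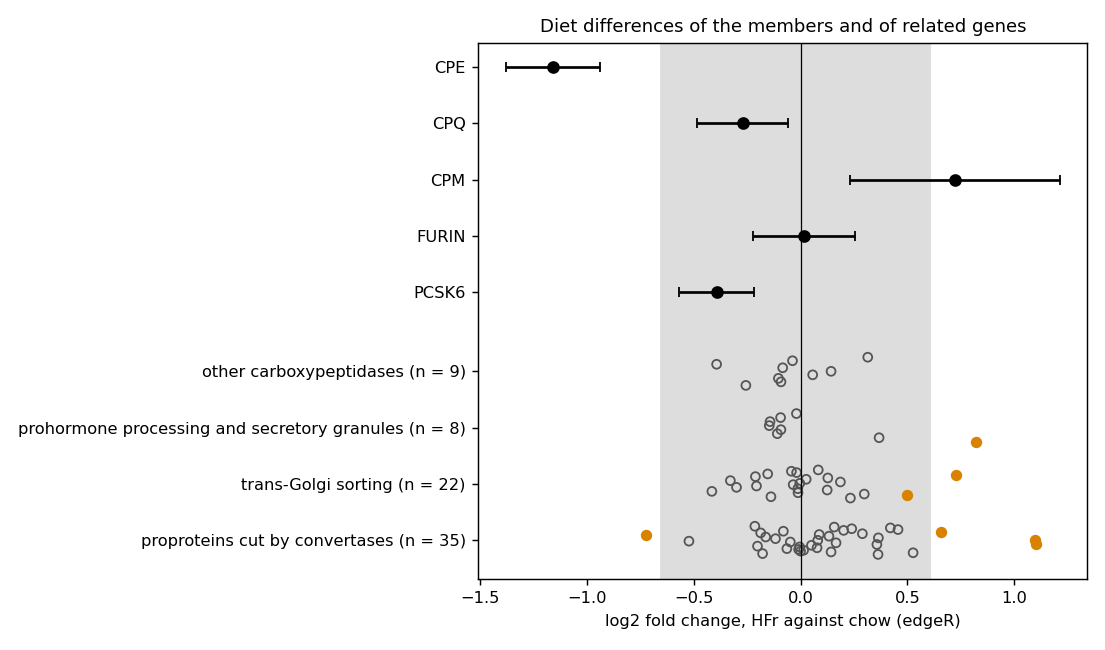
Log2 fold change, HFr against chow, from edgeR (horizontal axis) of the 5 fitted members with their standard errors (black) and of the tested genes of the 4 lists (circles, filled orange where the unadjusted p is under 0.05), with the middle 95% of all tested transcripts shaded. CPE at -1.16 lies left of the band that ends at -0.66, whereas CPQ, FURIN and PCSK6 lie within it.

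The size of the CPE difference was recomputed in 28 other ways. CPE was chosen from this contrast in the same animals, so a kept sign or size is no support for the difference. The values only describe how far it depends on the processing. With other normalizations, filters and tools on the same animals it stayed between -1.21 and -0.996 on the log2 scale, the latter in limma with a pseudocount of 1. Leaving out each animal in turn gave -1.31 (without chow replicate 3) to -1.06 (without HFr replicate 2). The extremes came from ratios within animals, -0.76 to PCSK6, whose mean was lower on HFr, and -1.61 to CPM, whose HFr mean was raised by 1 animal.

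**Figure D5:**
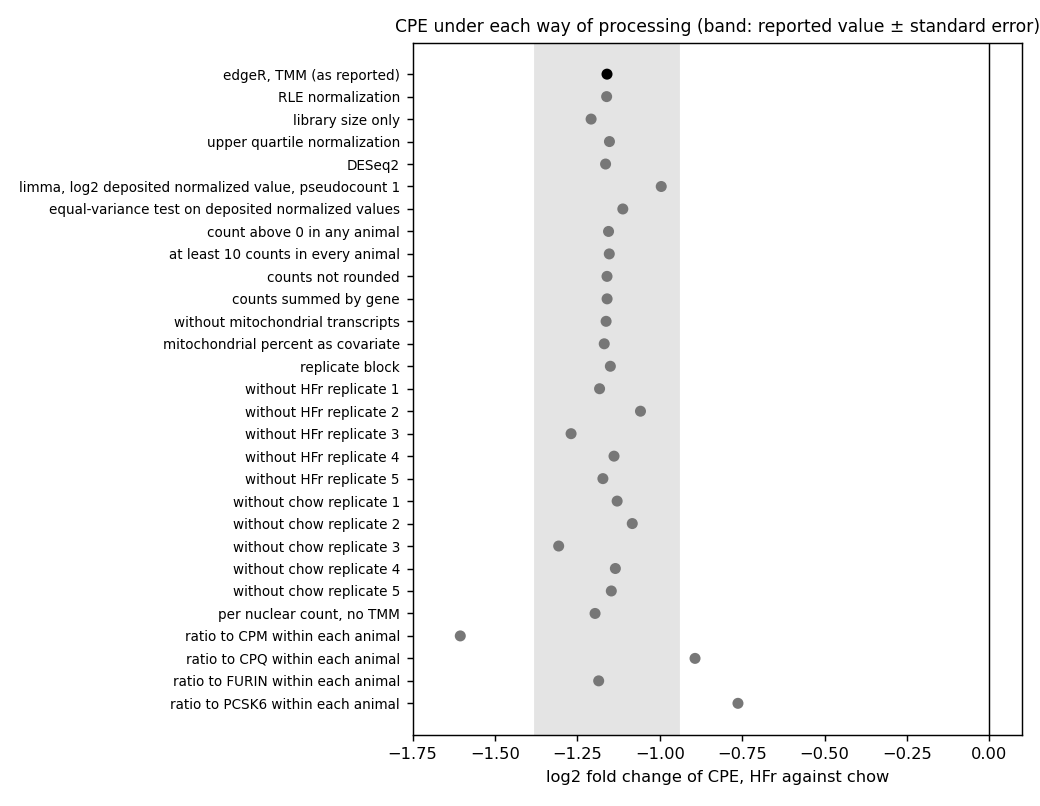
Log2 fold change of CPE, HFr against chow (horizontal axis), as reported (black) and under 28 alternatives (grey), with the reported value ± its standard error shaded. All points lie left of 0, from -1.61 for the ratio to CPM to -0.76 for the ratio to PCSK6. CPE was chosen from this contrast, so the shared side of 0 is no support for the difference.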

How the data were processed

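Transcript abundance was measured by RNA-Seq in 1 liver biopsy of each of 10 animals. The authors aligned reads to ChlSab1.1, annotated them with an Ensembl gene model and deposited estimated counts per transcript, made in Partek Flow by expectation-maximization and not normalized. The submitters' processing notes name CASAVA 1.8, FastQC, STAR 2.5.3a and Partek. The authors also deposited a normalized signal per transcript, the estimated counts scaled by TMM, used here only in alternatives. Of the counts above 0, 95.0% were whole numbers.

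After rounding, edgeR's filterByExpr (at least 10 counts in the smaller group's number of animals, scaled to library size, and 15 in total) left 7948 transcripts of 7939 genes. Diets were compared with edgeR 4.0.16 in R 4.3.3 (TMM, quasi-likelihood test, diet as the only term), with Benjamini-Hochberg adjustment over all tested transcripts and a threshold of 0.05. The standard error is the log2 fold change divided by the root of the F statistic. Alternatives used DESeq2 1.42.0, limma 3.58.1, the study's equal-variance test, other normalizations and filters, counts not rounded or summed by gene, mitochondrial transcripts left out or their percent as a covariate, a replicate block, and each animal left out. Ratios within animals and scaling to nuclear counts were added after the data were seen. Single values were compared by exact permutation over 252 assignments, and within-diet correlations over 14400 permutations within diets. The code was tested on simulated counts.

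Members, gene lists and marker lists (hepatocyte, cholangiocyte, stellate cell and fibroblast, smooth muscle, endothelial, macrophage, lymphocyte, blood, neuroendocrine and nerve, skeletal muscle) were chosen with earlier results of these data known. Named genes are all 8 members, the 3 tested genes with the smallest p and the 2 with the highest mean of each list (other carboxypeptidases, prohormone processing and secretory granules, trans-Golgi sorting, and proproteins cut by convertases), and the 5 most and 3 least CPE-like transcripts. CPM in the text is always the gene. Protein, metabolite and miRNA data were not used here.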

Additional observations from a re-analysis of the deposited data

Results flagged for a closer look

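In 4 of the 50 groups of 5 animals examined (10 of them groups of fitted members), 1 animal lay far from the others by Dixon's criterion (0.71 for 5 samples), which chance alone meets in about 1 group in 20. CPE on chow was lowest in replicate 3, at 14.6 normalized counts beside 25.1 to 28.5 in the other chow animals. CPM on HFr was highest in replicate 2, at 14.5 beside 3.14 to 4.87. CPB2 on chow was lowest in replicate 1, at 96.7 beside 188 to 222. FLNA on chow was lowest in replicate 3, at 23.1 beside 38.7 to 44.0. Chow replicate 3 was thus the low chow animal for both CPE and FLNA, and it also had the lowest summed smooth muscle markers (14.8) and the most nuclear counts (2657103) of all animals. What sets these animals apart was not tested.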

How the results depend on the processing

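The log2 fold change of CPE kept its sign under all 28 alternatives, and moved from the reported -1.16 by more than the spread between animals as the ratio to PCSK6 (-0.76) and to CPM (-1.61), but under none of the other alternatives. Leaving out 1 animal gave -1.31 to -1.06. CPE was chosen from this contrast in the same animals, so nothing can be read from the kept sign. The 341 transcripts under an unadjusted p of 0.05 became 124 with library size only and 756 with any count above 0, and 261 (without HFr replicate 2) to 408 (without chow replicate 2) with 1 animal left out. Those under an adjusted p went from 0 to 1 with library size only (CAPSL) and 2 in DESeq2 (CPE, chosen from this contrast, and RRM2). Of the unadjusted calls 48.1% were higher on HFr, but 67.4% in limma and 65.2% in the equal-variance test, both on the deposited normalized values. The 7 called genes of the 4 lists became 3 with library size only, and 4 (without HFr replicate 2) to 9 (without HFr replicate 5) with 1 animal left out.

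The sign changed in AEBP1, ARF1, C3, CTSA, NRDC and FURIN. ARF1 turned to 0.020 in limma and 0.025 in the equal-variance test, and CTSA to 0.027 in limma. With 1 animal left out, AEBP1 ran from -0.47 to 0.13 (without chow replicate 1), ARF1 from -0.083 to 0.049, C3 from -0.056 to 0.18, CTSA from -0.14 to 0.11, NRDC from -0.16 to 0.0026 and FURIN from -0.12 to 0.18. CPM ran from 0.01 (without HFr replicate 2) to 0.99. GPC3 had an unadjusted p of 0.05 or more under 8 of its 23 alternatives, PLXNB1 under 4 of 24, and AP1M1, CADPS2 and SORT1 under 1, library size only. CTSL passed without chow replicate 4, and FLNA without HFr replicate 4 or chow replicate 3. The causes were not tested.

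Animals of the same replicate number did not deviate together (r from -0.29 to 0.10). That gave no sign that the numbers pair them, but expression values cannot exclude a pairing in the design. With a replicate block the CPE difference was -1.15, 271 transcripts had an unadjusted p under 0.05, 0 an adjusted one, and 6 list genes were called. No order of levels between genes was computed, because transcript lengths were not at hand. CPD, PCSK5 and PCSK7 had too few counts for a fit, and for CPD the fit of its annotated transcript to the expressed mRNA was not tested. No alternative addresses which cells of the biopsy carry CPE.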

Other observations

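SCG3, which encodes the granule protein secretogranin III, was the most counted endocrine granule gene that the filter on low counts left out of the main fit. It had 89 counts over the 10 animals, 70 of them in HFr animals and 19 in chow animals and at most 22 in a single animal. It was chosen after its values were seen, and no test of its difference is given.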
